A study of Caenorhabditis elegans with 9 samples.

Results

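The Caenorhabditis elegans genes pud-3, pud-4, scl-2, dct-16 and alh-13 are described across 4 groups of RNA-seq libraries. They were selected on their counts in these same libraries, as genes far higher in worms depleted of RPOA-2 in the hypodermis than in worms depleted of it globally. Genes of other families that were set apart from this set were left out of the choice. The chosen genes are 5 of the 13246 genes listed in at least 1 library, and all 5 passed the filter on low counts that left 8026 genes for testing. Because the values in hypodermal and global libraries chose them, their differences that use those libraries are given as descriptions with no test. Only the comparison of 24 h with 18 h controls, whose libraries did not enter the choice, is tested on them.

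RPOA-2 is a core subunit of RNA polymerase I, the enzyme that transcribes the large ribosomal RNA precursor. Every strain carried degron::GFP::rpoa-2, so the tagged protein was present in controls too. Hypodermal depletion (n = 3 libraries, 24 h) added col-10p::TIR1 and 1 mM of the auxin IAA, and global depletion (n = 2, 24 h) added eft-3p::TIR1 and 1 mM IAA. TIR1 is a plant protein that marks degron-tagged proteins for destruction once auxin is present, col-10 is a cuticle collagen gene of the hypodermis, and eft-3 encodes a translation elongation factor made in most tissues. The controls at 24 h (n = 2) and at 18 h (n = 2) had neither TIR1 nor IAA, so effects of TIR1 or IAA cannot be told apart from those of depletion. The source is given as whole worm and the titles say embryo. Animals were grown at 16 °C, and the labels give neither the stage at harvest nor whether the libraries came from separate cultures. The p-values therefore reflect only how these libraries scatter, and that scatter may be technical.

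The 5 genes belong to 4 families. The pud genes are named for proteins that are more abundant in worms with a mutated daf-2 insulin receptor, in which the transcription factor DAF-16/FOXO is active. The scl genes encode secreted cysteine-rich proteins of the SCP/TAPS family, also called CAP, and dct stands for DAF-16/FOXO controlled, germline tumour affecting. The protein of alh-13 is the worm relative of the human enzyme ALDH18A1, which makes pyrroline-5-carboxylate from glutamate on the way to proline.

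The hypodermal libraries totalled 2134185, 1518298 and 781648 counts, the global libraries 1298047 and 1084894, the 24 h controls 324321 and 506659, and the 18 h controls 197970 and 166455. The table lists no count below 3, and "unlisted" below means fewer than 3 counts. Levels are CPM, counts scaled to a total of 1000000 with edgeR's TMM factors, and 3 counts stood for 1.44 to 3.89 CPM in depleted libraries but for 6.04 to 18.2 CPM in controls. The intervals given below cover counting error only. The floors are fixed at 3 counts and hold no counting error. Folds given as "at least" are therefore bounds on the observed counts, not on the true levels. The rpoa-2 mRNA lay at 290, 279 and 238 CPM in hypodermal, 355 and 369 CPM in global, 156 and 260 CPM in 24 h control and 187 and 272 CPM in 18 h control libraries. It does not check the labels, since the degron acts on the protein. Of 9 hypodermis markers 8 were listed in all 9 libraries, as were 6 of 8 intestine markers and all 6 of body wall muscle. The intestine regulator elt-2 was unlisted in 18 h control replicate 1 and 24 h control replicate 1.

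In hypodermal depletion, 4 of the 5 genes (pud-3, pud-4, scl-2 and dct-16) had all 3 libraries above all 6 other libraries, against 2.43% of the 8026 tested genes. The fifth, alh-13, did not: it lay at the level of the 24 h controls and was low in global depletion. For alh-13 the data thus go against a reading of the set as genes raised by hypodermal depletion alone. What the 5 share is a higher level in hypodermal than in global depletion, with groups that do not overlap for 5 of 5, against 16.8% of tested genes that were higher without overlap and 2.99% that passed the test as higher. That is the property they were chosen for, and nothing is read from it. In these bulk samples, fewer cells of a type and less RNA per cell cannot be told apart.

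**Figure D1:**
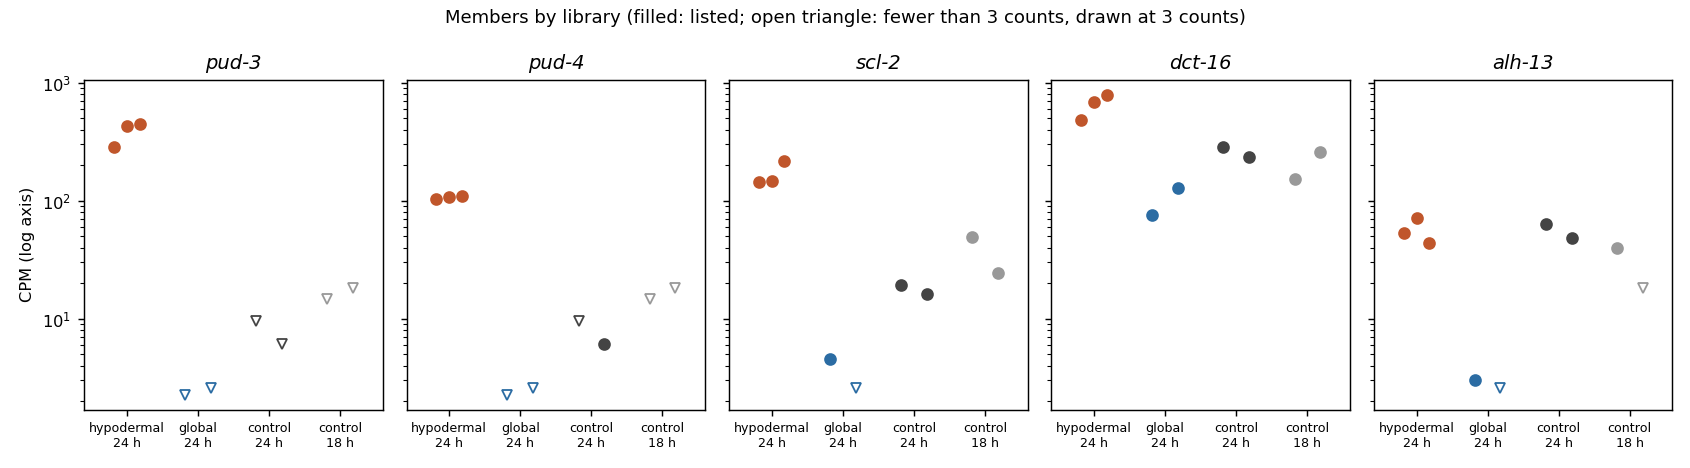
Level of each of the 5 genes in each of the 9 libraries, in CPM on a log axis, with one panel per gene and one point per library. Open triangles mark unlisted libraries, drawn at the CPM of 3 counts. The pud-3 and pud-4 points of hypodermal depletion stand far above the triangles, scl-2 and dct-16 are lowest in global depletion and highest in hypodermal depletion, and the alh-13 points of hypodermal depletion overlap those of the 24 h controls.

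The gene pud-3 (WBGene00017501) lies on the minus strand of chromosome V, where its listed transcript spans 2324510 to 2326827 (WBcel235), with a coding sequence of 516 bases in 1 exon. It had 282, 431 and 448 CPM in hypodermal depletion, from 587, 643 and 346 counts. It was unlisted in both global libraries, both 24 h controls and both 18 h controls. All of its listed signal was thus in hypodermal depletion, where it averaged 387 ± 91.1 CPM (SD, n = 3). Set against 3 counts in each unlisted library, that mean was at least 160-fold higher than in global depletion, at least 49.7-fold higher than in 24 h controls and at least 23.5-fold higher than in 18 h controls. The bounds are set by depth, and no fold between global depletion and either control group can be given.

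The gene pud-4 (WBGene00017498) lies beside it on the plus strand, chromosome V 2326678 to 2327262, with 486 coding bases in 2 exons. It had 102.5, 108 and 109 CPM in hypodermal depletion, from 213, 161 and 84 counts, and was unlisted in both global libraries. Of the 4 controls 1 listed it, 24 h control replicate 2, with 3 counts, or 6.04 CPM (95% Poisson interval 1.25 to 17.7). The 3 hypodermal libraries were close to each other (106 ± 3.42 CPM, SD, n = 3), a smaller spread than that of any other of the 5 genes. All 3 values lie within the counting error of replicate 3 alone (95% Poisson interval 86.8 to 134.8 CPM). Nothing is therefore read from this small spread. The mean was at least 43.9-fold higher than in global depletion and at least 6.46-fold higher than in 18 h controls. Against the 24 h controls the fitted log2 fold change was 4.40 (SE 0.55). With the unlisted count entered as 1, the ratio of counts pooled over each group and scaled to library size was 21.4. Its 95% counting interval was 7.27 to 138.7, with the unlisted count at 0 or 2, whichever widened it. Global depletion and both control groups were at or under 3 counts per library, so no fold is given among them.

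The transcript spans of pud-3 and pud-4 overlap by 150 bases on opposite strands, while their coding sequences share 0 bases and are 1525 bases apart. The overlapping bases lie in the coding sequence of pud-4, and the listed pud-3 transcript is absent from the annotation used here, which places the coding sequence of the gene inside a shorter span. Whether the counting used strand is not given in the sources used here. If it used the listed spans, reads from the overlap could have been given to either gene. If it used coding sequences only, they would count for pud-4 alone. The ratio of pud-3 to pud-4 counts was 2.76, 3.99 and 4.12 in hypodermal replicates 1, 2 and 3, or 2.60, 3.76 and 3.88 per kb of coding sequence. In every hypodermal library pud-3 thus had more counts than pud-4, also per kb of coding sequence, by an amount that varied between libraries.

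The annotation holds 6 pud genes within 8893 bases of chromosome V. Only pud-3 and pud-4 were listed in any library. The other 4, pud-1.1 and pud-1.2 with 453 coding bases each and 2 genes that the annotation both names pud-2.2 with 462 each, were listed in none of the 9 libraries. These are pairs of near-identical copies, and how the authors' counting treated reads that match both copies is not given in the sources used here. Their absence from the list is therefore no measure of their level.

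**Figure D2:**
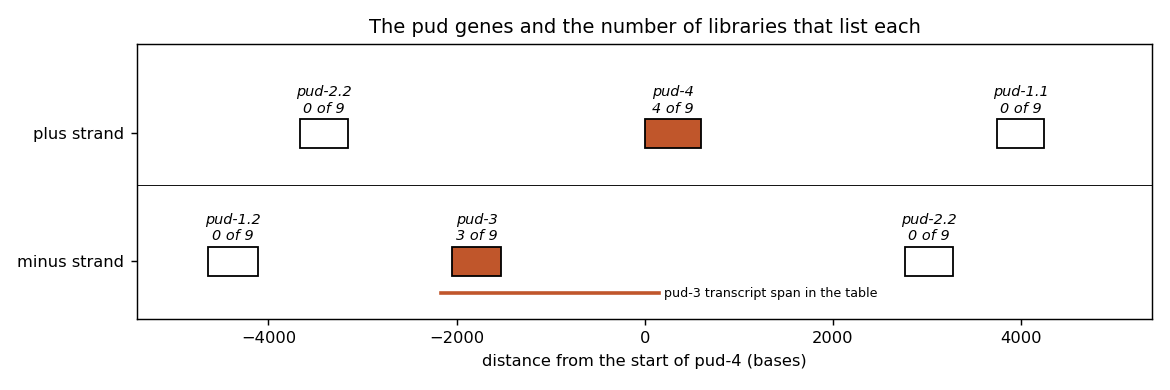
The pud genes on chromosome V, drawn to scale as distance in bases from the start of pud-4, with plus-strand genes above the line and minus-strand genes below it. Numbers give the libraries of 9 that list each gene: 3 for pud-3, 4 for pud-4 and 0 for the 4 others. The lower bar is the span of the listed pud-3 transcript, which reaches 150 bases into pud-4.

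The gene scl-2 (WBGene00009895, chromosome IV 13057678 to 13059085, plus strand, 621 coding bases in 4 exons) had 143, 147 and 218 CPM in hypodermal depletion. In global depletion it had 4.52 CPM, from 6 counts, in replicate 1 and was unlisted in replicate 2. It had 19.1 and 16.11 CPM in 24 h controls and 49.3 and 24.2 CPM in 18 h controls, from 4 to 10 counts each. Hypodermal libraries were thus above, and global libraries below, all of the controls. The mean was 169 ± 42.1 CPM in hypodermal depletion (SD, n = 3), against 17.6 ± 2.11 CPM in 24 h controls (SD, n = 2) and 36.8 ± 17.8 CPM in 18 h controls (SD, n = 2). The fitted log2 fold change was 3.26 (SE 0.42) for hypodermal depletion against 24 h controls and -2.57 (SE 0.71) for global depletion against the same controls. Between hypodermal and global depletion it was 5.83 (SE 0.45). These fits lean on the 1 global library that lists the gene. The last value was 7.35 without global replicate 1 and 5.16 without global replicate 2. The value for global depletion against 24 h controls was -4.15 and -1.90 in the same order. Without global replicate 1 the global group was wholly unlisted, so 7.35 and -4.15 depend on the count of 1 entered for it.

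The gene dct-16 (WBGene00012615, chromosome V 20497924 to 20499103, minus strand, 270 coding bases in 2 exons) was listed in all 9 libraries. Its level was 477, 686 and 789 CPM in hypodermal libraries, against 75.4 and 128 CPM in global ones. It had 283 and 236 CPM in 24 h controls and 153 and 260 CPM in 18 h controls. As with scl-2, every hypodermal library was above and every global library below every control. Means were 651 ± 159 CPM in hypodermal (SD, n = 3), 102 ± 37.4 CPM in global, 259 ± 33.7 CPM in 24 h control and 207 ± 75.8 CPM in 18 h control libraries (SD, n = 2 each). The log2 fold change against 24 h controls was 1.33 (SE 0.25) in hypodermal and -1.35 (SE 0.28) in global depletion, and it was 2.68 (SE 0.25) between hypodermal and global depletion.

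The gene alh-13 (WBGene00011938, chromosome X 12782411 to 12787144, plus strand, 2406 coding bases in 9 exons) had 52.9, 71.0 and 44.05 CPM in hypodermal depletion. It had 3.02 CPM, from 4 counts, in global replicate 1 and was unlisted in global replicate 2. It had 63.7 and 48.3 CPM in 24 h controls, and 39.4 CPM, from 8 counts, in 18 h control replicate 1, with replicate 2 unlisted. The hypodermal libraries overlapped the 24 h controls, and both global libraries were lower than either. Hypodermal depletion averaged 56.0 ± 13.7 CPM (SD, n = 3) and 24 h controls 56.0 ± 10.8 CPM (SD, n = 2), a log2 fold change of 0.04 (SE 0.40). Global depletion differed from 24 h controls by -4.69 (SE 0.65) on the log2 scale, and hypodermal from global depletion by 4.73 (SE 0.58). Without global replicate 1 these were -5.81 and 5.79, values that depend on the count of 1 entered for the unlisted global replicate 2. The ratio of pooled counts, hypodermal over global, was 28.7 with the unlisted count entered as 1. Its 95% counting interval was 10.8 to 132.5, with that count at 0 or 2, whichever widened it.

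**Figure D3:**
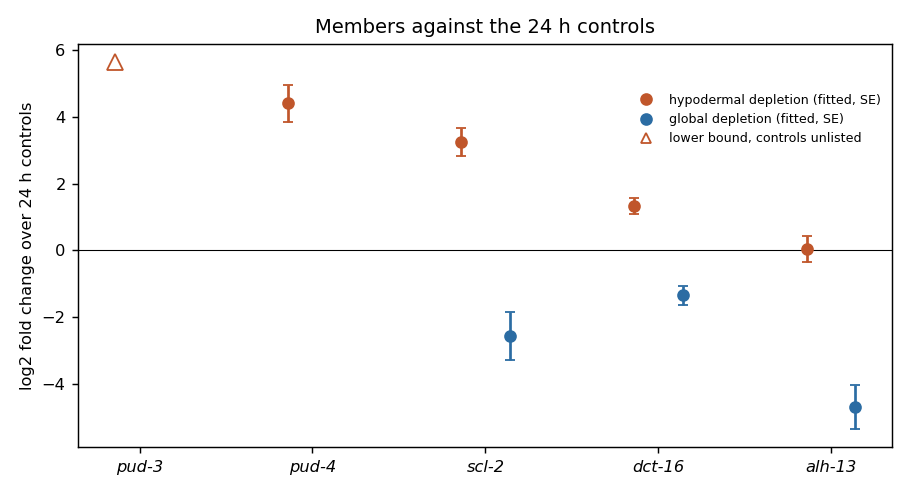
Log2 fold change of each gene against the 24 h controls, for hypodermal and global depletion. Filled points are edgeR estimates with their SE, and the open triangle is the log2 of the least fold for pud-3, whose controls were unlisted. For scl-2 and dct-16 hypodermal depletion stands above 0 and global depletion below it, while for alh-13 hypodermal depletion stands at 0.04 and global depletion at -4.69. No global point is drawn for pud-3 and pud-4, where both groups were at or under 3 counts.

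Counted over the set, 4 of 5 genes were higher in hypodermal depletion than in 24 h controls without overlap, against 16.8% of tested genes. Lower in global depletion than in 24 h controls without overlap were 3 of 5 (scl-2, dct-16 and alh-13), against 24.7% of tested genes. For pud-3 and pud-4 this second comparison could not be made at the depth of the controls. All global libraries were below all 7 other libraries for 2 of 5 (scl-2 and dct-16), against 5.28% of tested genes. The comparisons share the 24 h control libraries, so their values are not independent.

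By the fitted difference of hypodermal from global depletion over the 8026 genes, pud-3 ranked 1, pud-4 ranked 2, scl-2 ranked 3, alh-13 ranked 5 and dct-16 ranked 45. These ranks describe the choice of the genes, and those of pud-3 and pud-4 depend on the value entered for unlisted counts. Rank 4, between scl-2 and alh-13, was ilys-5, a gene for an invertebrate-type lysozyme (log2 fold change 5.63, SE 0.38). Below alh-13 came clec-170, of the C-type lectin-like family, at least 9.45-fold higher in hypodermal than in global depletion. Beside dct-16 stood the ferritin gene ftn-1 at rank 44 (2.70, SE 0.60) and the G protein alpha subunit gene gpa-11 at rank 46, at least 2.48-fold higher. The 5 genes are thus not a run of neighbours in that order. The choice left out genes of other families, so nothing is read from the gaps.

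Per kb of coding sequence in hypodermal depletion, dct-16 was highest of the 5 at 2410 ± 588 CPM per kb, followed by pud-3 at 750 ± 177, scl-2 at 272 ± 67.8, pud-4 at 219 ± 7.05 and alh-13 at 23.3 ± 5.71 (SD, n = 3 each). The neighbours scl-2 and pud-4 differ by less than the SD of scl-2. These levels divide by coding length, so the order and the shares below could differ if whole listed transcripts were counted. Of 7843 tested genes with a coding length, 99.3% had a lower level per kb than dct-16 in hypodermal depletion, 98.0% a lower one than pud-3 and 93.7% a lower one than pud-4. The share below dct-16 was 96.7% in global depletion, 98.2% in 24 h controls and 97.8% in 18 h controls, so it was among the abundant messages in every group. The share below scl-2 was 95.04% in hypodermal depletion, against 53.2% in 24 h controls and 74.6% in 18 h controls. The share below alh-13 was 45.5% in hypodermal depletion and 46.4% in 24 h controls.

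Time alone was compared in the controls, 24 h against 18 h. By edgeR's quasi-likelihood test with Benjamini-Hochberg adjustment over all 8026 genes, 0 of the 3 genes that could be assessed passed, against 3.07% of tested genes (0.934% higher and 2.13% lower). None had an unadjusted p under 0.05, and DESeq2 called 0 as well. For scl-2 the log2 fold change was -1.12 (SE 0.63, adjusted p = 0.379), with both 24 h libraries below both 18 h libraries, as for 18.7% of tested genes. For dct-16 it was 0.34 (SE 0.31, adjusted p = 0.628), with overlap. For alh-13 it was 1.19 (SE 0.63, adjusted p = 0.342), with both 24 h libraries above the 1 listed 18 h library, as for 17.1% of tested genes. Its estimate was 3.32 without 18 h control replicate 1 and 0.54 without 18 h control replicate 2, and it passed the test in none of 17 alternatives. With 18 h control replicate 1 left out, the 18 h group was wholly unlisted for alh-13, so 3.32 depends on the count of 1 entered for it. The pud genes were at or under 3 counts in all 4 controls and gave no fold.

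Across the 9 libraries the 5 genes varied together to different degrees. Pearson r of log2(CPM + 1), with unlisted counts entered as 1, was 0.985 between pud-3 and pud-4, 0.925 between dct-16 and pud-4, and lowest, 0.586, between alh-13 and pud-3. These are descriptions over libraries that fall into 4 groups and differ 12.8-fold in depth. Of the 9 libraries, 3 list pud-3 and 4 list pud-4, so most of their values here are the entered count of 1. Outside hypodermal depletion the pud values thus follow mainly depth, and their r with each other and with other genes rest mainly on the hypodermal libraries. Among tested genes with a mean of at least 10 CPM, the gene most like both pud-3 (r = 0.985) and pud-4 (r = 0.983), apart from each other, was npa-1, which encodes a polyprotein of lipid-binding units. It averaged 3277 CPM in hypodermal depletion, 1379 CPM in global depletion, 1599 CPM in 24 h controls and 1526 CPM in 18 h controls. Next for pud-3 came W05H9.1 (r = 0.941), vab-23 (0.941) and Y32F6B.1 (0.936), and for pud-4 Y32F6B.1 (0.950), ugt-22 (0.938) and mua-3 (0.937), which attaches the epidermis to the cuticle.

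For scl-2 the most similar patterns were those of Y32F6B.1 (r = 0.986), pdi-6 (0.958), spp-1 (0.939), the gut esterase gene ges-1 (0.933) and papl-1 (0.932). Y32F6B.1 averaged 138 CPM in hypodermal, 49.0 CPM in global, 73.4 CPM in 24 h control and 81.2 CPM in 18 h control libraries. For dct-16 they were rrf-1 (0.973), an RNA-dependent RNA polymerase gene, the fatty acid elongase gene elo-6 (0.956), pho-11 (0.943) and the acyl-CoA oxidase genes acox-1.4 (0.940) and acox-1.2 (0.934). The level of elo-6 was 248 CPM in hypodermal, 49.1 CPM in global, 140 CPM in 24 h control and 78.5 CPM in 18 h control libraries. That of rrf-1 varied far less than dct-16 did, at 101.4, 73.45, 89.45 and 81.79 CPM in the same order. Pearson r compares the shape of a pattern and not its size. For alh-13 they were the cathepsin B-like protease gene cpr-6 (0.964), rab-11.1 (0.952), ldp-1 (0.949), hach-1 (0.943) and nra-2 (0.942). Like alh-13, cpr-6 had close means in hypodermal depletion and 24 h controls, 384.5 and 347 CPM, with 66.0 CPM in global depletion and 156 CPM in 18 h controls.

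Genes that start within 20 kb of a member were examined to see whether a member's pattern extended along its chromosome. Within 20 kb of scl-2 were 14 other coding genes, of which 8 were listed and 3 tested, the relatives scl-3, scl-5 and scl-6 on the same strand. Within 20 kb of dct-16 were 9, of which the tested ones were the ribosomal protein gene rpl-2, dhcr-7 and B0250.5. Within 20 kb of alh-13 were 5, of which the tested ones were the antimicrobial peptide genes abf-5 and abf-6. By edgeR none of these 8 genes passed in any of the 4 comparisons, and DESeq2 called 0 of them too. Beside pud-3 and pud-4, 9 other genes gave none that could be tested.

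Among the 8 neighbours scl-5 came closest, at 11.6, 14.1 and 10.4 CPM in hypodermal depletion, unlisted and 3.44 CPM in global depletion, 12.7 and 14.1 CPM in 24 h controls and unlisted in 18 h controls. Its level in hypodermal depletion overlapped the 24 h controls and both global libraries were lower, as for alh-13. Its log2 fold change between hypodermal and global depletion was 2.49 (SE 0.78, edgeR adjusted p = 0.0536). With scl-5, 2 of the 8 neighbours had an unadjusted p under 0.05 in that comparison, the other being B0250.5, and 1 of 8 had one in each of the other 3 comparisons.

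The SCP/TAPS family was taken as 29 further names, of which 11 were listed and 6 tested (scl-3, scl-5, scl-6, scl-24, vap-1 and lon-1). Between hypodermal and global depletion 0 of 6 passed by edgeR, against 4.42% of all tested genes, with 3 of 6 at an unadjusted p under 0.05 and 0 by DESeq2. Their median log2 fold change was 0.33, against 0.01 over all tested genes. Against 24 h controls 1 was higher and 1 lower in hypodermal depletion, where 5.05% of tested genes passed (1.66% higher and 3.39% lower), and 1 was higher in global depletion, where 8.45% passed (3.44% higher and 5.01% lower). The large difference at scl-2 therefore had no counterpart past the test among its tested relatives.

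Of these relatives, scl-24 rose in both depletions. Its level was 48.6, 40.9 and 25.9 CPM in hypodermal and 21.9 and 28.4 CPM in global libraries, and it was unlisted in all 4 controls. Set against 3 counts in each 24 h control, that was at least 4.93-fold higher in hypodermal depletion and at least 3.22-fold higher in global depletion. With unlisted counts entered as 1, both differences passed edgeR's test (adjusted p = 0.000618 for hypodermal and 0.00862 for global depletion). Without 24 h control replicate 2 both calls ended (adjusted p = 0.0551 and 0.142), and the global call also ended without global replicate 2 (0.0591) and with DESeq2 (0.0562). For vap-1, a relative of venom allergen proteins, hypodermal depletion had 47.6, 44.2 and 64.8 CPM and global depletion 59.5 and 98.1 CPM. The 24 h controls had 140 and 101 CPM and the 18 h controls 54.2 and 18.2 CPM. The gene was also lower in both global libraries than in both 24 h controls (-0.59, SE 0.34), without passing the test. Its fall in hypodermal depletion, by 1.21 on the log2 scale (SE 0.32) against 24 h controls, passed edgeR's test (adjusted p = 0.0146). That call was lost when 24 h control replicate 1 (0.203) or hypodermal replicate 2 (0.0727) was left out, with unlisted counts as 0 (0.0553) and with no filter (0.0631). It was higher in 24 h than in 18 h controls (1.65, SE 0.49, adjusted p = 0.0485), a call lost in 11 of 18 alternatives, among them leaving out either 24 h control (0.162 without replicate 1 and 0.0673 without replicate 2), 18 h control replicate 2 (0.323) or any hypodermal library (0.0539 to 0.0639).

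Of 17 further dct genes 7 were listed and 4 tested (dct-1, dct-6, dct-17 and dct-18), and 2 passed between hypodermal and global depletion, in opposite directions. The dct-18 level followed that of dct-16 in being low in global depletion: 346, 411 and 487 CPM in hypodermal, 134 and 120 CPM in global, 500 and 354.5 CPM in 24 h control and 360 and 363 CPM in 18 h control libraries. It was higher in hypodermal than in global depletion (log2 fold change 1.70, SE 0.22, edgeR adjusted p = 2.68e-07) and fell in global depletion against 24 h controls (-1.74, SE 0.25, adjusted p = 8.19e-07). Unlike dct-16, its hypodermal libraries overlapped the controls.

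The dct-17 level ran the other way, at 53.9, 53.6 and 60.9 CPM in hypodermal, 678 and 749 CPM in global, 25.5 and 48.3 CPM in 24 h control and 54.2 and 54.4 CPM in 18 h control libraries. It stood apart in global depletion alone, where both libraries were above all others. It was lower in hypodermal than in global depletion (-3.68, SE 0.22, edgeR adjusted p = 1.69e-17) and rose in global depletion against 24 h controls (4.20, SE 0.31, adjusted p = 8.78e-15). All 4 calls on dct-17 and dct-18 held in all 18 alternatives. Against 24 h controls in hypodermal depletion 0 of the 4 dct genes passed by edgeR and by DESeq2, with 1 of 4 at an unadjusted p under 0.05. Between 24 h and 18 h controls 0 of 4 passed, none with an unadjusted p under 0.05.

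**Figure D4:**
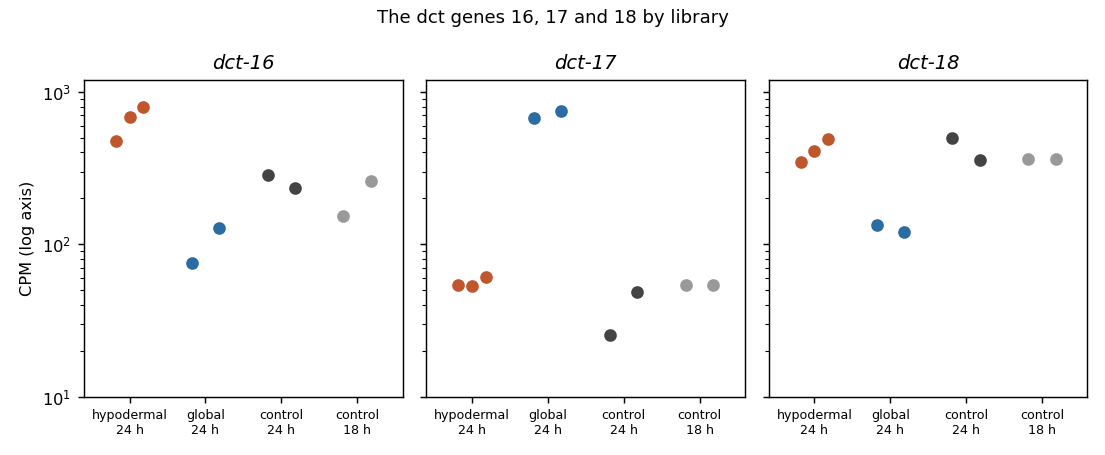
Level of dct-16, dct-17 and dct-18 in each library, in CPM on a log axis, with one point per library and groups from left to right as hypodermal, global, 24 h control and 18 h control. In global depletion dct-16 (75.4 and 128 CPM) and dct-18 (134 and 120 CPM) are at their lowest, while dct-17 is at its highest (678 and 749 CPM).

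For alh-13 the wider family is that of the aldehyde dehydrogenases, enzymes that oxidise aldehydes to acids. Of 12 further alh genes 11 were tested, and 0 passed between hypodermal and global depletion by edgeR or by DESeq2, with 3 of 11 at an unadjusted p under 0.05. Their median log2 fold change in that comparison was 0.31, and the largest was 0.78, for alh-4. The one relative that passed elsewhere was alh-9, at 49.6, 54.9 and 63.5 CPM in hypodermal, 92.7 and 74.0 CPM in global, 181 and 175 CPM in 24 h control and 113 and 96.8 CPM in 18 h control libraries. Both depletions lay below all controls. It fell against 24 h controls in hypodermal depletion (-1.69, SE 0.27, edgeR adjusted p = 1.57e-05) and in global depletion (-1.09, SE 0.29, adjusted p = 0.00943). The second call did not survive leaving out either 24 h control (0.0534 without replicate 1 and 0.0514 without replicate 2) or global replicate 2 (0.202), dropping the filter (0.0615) or thinning (0.146).

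The pathway around alh-13 was taken as 13 genes of proline, ornithine and glutamate metabolism, of which 8 were tested. They include prdh-1 and alh-6, which break proline down to glutamate, oatr-1, which links ornithine to the same intermediate that ALH-13 makes, gdh-1, which joins glutamate to the citric acid cycle, 3 glutaminases and pars-1, which loads proline onto its tRNA. None passed in any of the 4 comparisons by edgeR. Those with an unadjusted p under 0.05 were 2 of 8 between hypodermal and global depletion, 0 for hypodermal depletion against 24 h controls, 2 for global depletion against 24 h controls and 2 for 24 h against 18 h controls, and DESeq2 called 1, in global depletion against 24 h controls. The nearest to the threshold was gdh-1 in global depletion, at 1440 and 1291 CPM against 1983 and 2153 CPM in 24 h controls, a difference of -0.60 on the log2 scale (SE 0.21, edgeR adjusted p = 0.0598). For oatr-1, hypodermal depletion had 156, 205 and 247.5 CPM and global depletion 128 and 157 CPM (0.50, SE 0.23, adjusted p = 0.286). For alh-6 the difference between hypodermal and global depletion was 0.15 (SE 0.22) and for prdh-1 it was -0.28 (SE 0.26). The difference of 4.73 at alh-13 was thus not seen at this size in the 8 tested genes. The 5 others, pycr-1, pycr-2, pycr-3, pycr-4 and argn-1, were found by symbol in no library, and entries under another name were not sought. They include the pycr genes of proline synthesis, so the step from the product of ALH-13 to proline was not assessed here.

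Proline in collagen is hydroxylated by enzymes built from dpy-18, phy-2 and the protein disulfide isomerase PDI-2. Of 5 such genes 3 were tested. The level of pdi-2 was 817, 863 and 976 CPM in hypodermal, 361 and 293.5 CPM in global, 1107 and 870.1 CPM in 24 h control and 887.5 and 956 CPM in 18 h control libraries. As for alh-13, hypodermal depletion lay near the controls and global depletion below them. It was higher in hypodermal than in global depletion (1.43, SE 0.20, edgeR adjusted p = 1.43e-06) and fell in global depletion against 24 h controls (-1.59, SE 0.22, adjusted p = 5.82e-07), and both calls held in all 18 alternatives. Between hypodermal and global depletion dpy-18 (0.14, SE 0.28) and phy-2 (0.31, SE 0.32) did not pass.

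Since the pud and dct names refer to DAF-16/FOXO and insulin signalling, 29 genes known to be raised by DAF-16/FOXO in daf-2 mutants were examined, of which 26 were listed and 18 tested. Between hypodermal and global depletion 5 were higher and 1 lower by edgeR, or 6 of 18, where 2.99% of all tested genes were higher and 1.43% lower, with a median log2 fold change of 0.60 against 0.01 over all tested genes. Those higher were ctl-2, a catalase gene (1.59, SE 0.29, adjusted p = 0.000162), ftn-1 (2.70, SE 0.60, adjusted p = 0.0023), the lysozyme gene lys-7 (1.59, SE 0.37, adjusted p = 0.00444), the glutathione transferase gene gst-4 (1.53, SE 0.38, adjusted p = 0.00708) and dod-3 (2.71, SE 0.81, adjusted p = 0.0417). The one lower was the small heat shock gene hsp-16.2 (-1.19, SE 0.27, adjusted p = 0.0038). The ctl-2 call held in all 18 alternatives. Without global replicate 2 the calls on ftn-1 (0.148), lys-7 (0.121), gst-4 (0.249), dod-3 (0.144) and hsp-16.2 (0.0735) ended, and without global replicate 1 those on ftn-1 (0.0521), lys-7 (0.0553), dod-3 (0.474) and hsp-16.2 (0.0744) did. Without hypodermal replicate 2 the calls on gst-4 (0.0621), dod-3 (0.0687) and hsp-16.2 (0.0543) ended, and without hypodermal replicate 3 those on gst-4 (0.0874), lys-7 (0.0919) and dod-3 (0.0513) did. Thinning all libraries to 166455 counts ended those on gst-4 (0.18), lys-7 (0.277) and hsp-16.2 (0.512), and unlisted counts as 0 ended those on ftn-1 (0.0545) and dod-3 (0.299). The dod-3 call was also lost with DESeq2 (0.129), total-count scaling (0.0552) and no filter (0.0513).

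Read by library, these genes differ in which depletion departs from the 24 h controls. For ctl-2, hypodermal depletion had 94.8, 100.5 and 153 CPM, global depletion 37.7 and 37.9 CPM, 24 h controls 150 and 78.6 CPM, and 18 h controls 212 and 218 CPM. For ftn-1 the values were 23.6, 24.1 and 24.6 CPM in hypodermal depletion, 4.52 and 2.58 CPM in global depletion, and 9.55 and 12.1 CPM in 24 h controls, with 18 h controls unlisted. Hypodermal depletion thus overlapped the 24 h controls and lay below the 18 h controls for ctl-2, and lay above the 24 h controls for ftn-1. For gst-4 the values were 51.5, 85.1 and 99.8 CPM in hypodermal depletion, 32.4 and 20.7 CPM in global depletion, and 15.9 and 26.2 CPM in 24 h controls, with 48.4 CPM in 18 h control replicate 2 and replicate 1 unlisted. Its hypodermal libraries were above all others, the lowest of them by a small margin over that 18 h control.

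Against 24 h controls the same list split. In hypodermal depletion, where 1.66% of all tested genes were higher and 3.39% lower, 2 of 18 rose, gst-4 (1.81, SE 0.47, edgeR adjusted p = 0.0126) and hsp-16.41 (1.79, SE 0.48, adjusted p = 0.0163), and 2 fell, the glyoxylate cycle gene icl-1 (-2.23, SE 0.19, adjusted p = 1.16e-12) and the alcohol dehydrogenase gene sodh-1 (-1.32, SE 0.22, adjusted p = 3.73e-05). Leaving out 24 h control replicate 1 (0.146) or 2 (0.0665), or hypodermal replicate 2 (0.0596) or 3 (0.0742), ended the gst-4 call. Leaving out 24 h control replicate 2 (0.455) or hypodermal replicate 1 (0.0548) ended the hsp-16.41 call. Thinning ended both (0.285 for gst-4 and 0.693 for hsp-16.41), and unlisted counts as 0 ended that on gst-4 (0.0503). The icl-1 and sodh-1 calls in hypodermal depletion held in all 18 alternatives. The list's median was 0.18, against 0.03 over all tested genes.

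In global depletion, where 3.44% of all tested genes were higher and 5.01% lower, 2 of 18 rose against 24 h controls, hsp-16.41 (2.74, SE 0.48, edgeR adjusted p = 4.91e-05) and hsp-16.2 (1.79, SE 0.37, adjusted p = 0.000624). Small heat shock genes have near-identical copies, so the share of reads given to each is uncertain. In the same comparison 4 fell: icl-1 (-2.18, SE 0.22, adjusted p = 1.10e-10), ctl-2 (-1.54, SE 0.34, adjusted p = 0.0014), dod-3 (-3.20, SE 0.93, adjusted p = 0.0204) and sodh-1 (-0.81, SE 0.24, adjusted p = 0.0237). The ctl-2 call ended without 24 h control replicate 1 (0.134), as did those on sodh-1 (0.431) and dod-3 (0.0604). The dod-3 call also ended without 24 h control replicate 2 (0.0931) or global replicate 1 (0.194) or 2 (0.0535), and the sodh-1 call without global replicate 1 (0.179) or 2 (0.125). The sodh-1 call was lost in 7 of 18 alternatives, also with unlisted counts as 0 (0.0654), total-count scaling (0.056), no filter (0.148) and thinning (0.0867). Unlisted counts as 0 ended that on dod-3 (0.157), and thinning that on hsp-16.2 (0.0727). The median was -0.53, against 0.01 over all tested genes. Between 24 h and 18 h controls 0 of 18 passed by edgeR or DESeq2, with 4 of 18 at an unadjusted p under 0.05.

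**Figure D5:**
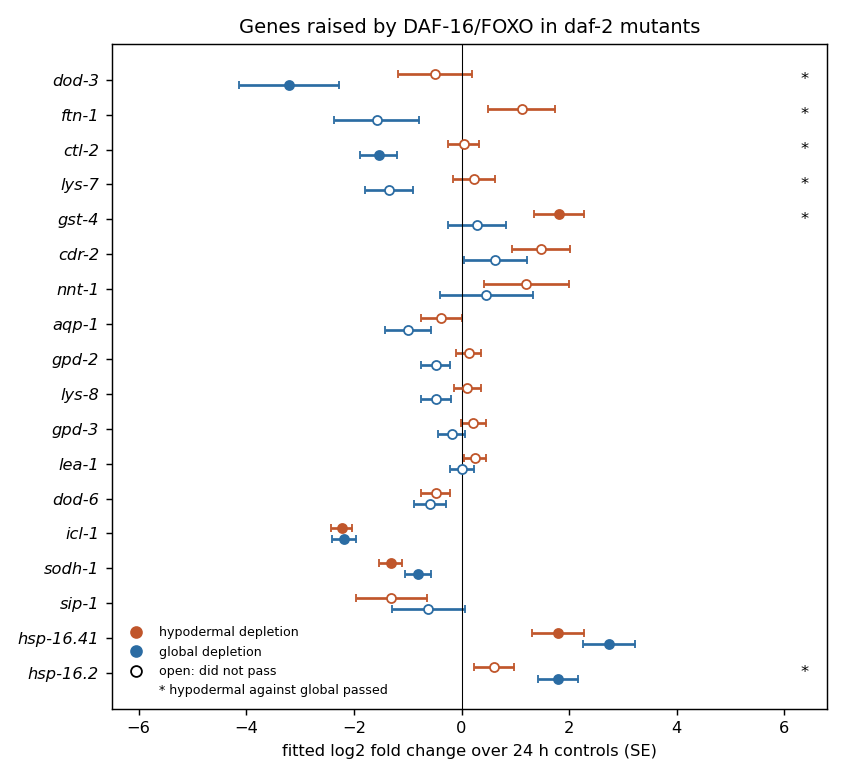
Fitted log2 fold change against 24 h controls, with SE, of the 18 tested genes raised by DAF-16/FOXO in daf-2 mutants, for hypodermal and global depletion. Filled points passed the test, open points did not, and an asterisk marks the 6 genes that passed between hypodermal and global depletion. The points for icl-1 lie together at -2.23 and -2.18, while those for ctl-2 and dod-3 are apart, with global depletion lower.

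Some markers of the intestine, like the 5 genes, were higher in hypodermal than in global depletion. By edgeR 3 of 8 intestine markers passed as higher, against 2.99% of all tested genes: pept-1 (1.42, SE 0.23, adjusted p = 1.35e-05), ges-1 (1.67, SE 0.37, adjusted p = 0.00211) and pho-1 (1.21, SE 0.31, adjusted p = 0.0094). None was lower. The ges-1 call ended without global replicate 1 (0.0999) or 2 (0.0593), and the pho-1 call without global replicate 1 (0.394) or hypodermal replicate 3 (0.113) and with thinning (0.111). The summed level of the 8 ran from 4112 to 5921 CPM in hypodermal depletion, 3741 to 4019 CPM in global depletion, 5130 to 6989 CPM in 24 h controls and 7884 to 9333 CPM in 18 h controls. The intestine regulators elt-2 (0.03, SE 0.53) and elt-7 (1.48, SE 0.96) did not pass, and act-5 (0.25, SE 0.21), ifb-2 (0.08, SE 0.19) and eps-8 (-0.01, SE 0.21) did not either.

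Against 24 h controls the intestine markers that passed were lower, not higher, in both depletions. In hypodermal depletion 1 of 8 intestine markers fell, ifb-2, an intermediate filament gene (-0.68, SE 0.19, edgeR adjusted p = 0.0239), and 0 rose, while pept-1 (-0.58, SE 0.21) and pho-1 (-0.64, SE 0.30) did not pass. The ifb-2 call ended without 24 h control replicate 1 (0.263) or hypodermal replicate 2 (0.126), with unlisted counts as 0 (0.0717), no filter (0.123) and thinning (0.0503). In global depletion 3 of 8 fell, pept-1 (-2.0, SE 0.25, adjusted p = 3.68e-08), pho-1 (-1.86, SE 0.35, adjusted p = 0.000169) and ifb-2 (-0.76, SE 0.21, adjusted p = 0.015). The pept-1 and pho-1 calls held in all 18 alternatives, and that on ifb-2 ended without 24 h control replicate 1 (0.176) or global replicate 2 (0.219), with no filter (0.117) and with thinning (0.0707). Between 24 h and 18 h controls ifb-2 fell (-0.99, SE 0.22, adjusted p = 0.00432), a call that did not hold without 18 h control replicate 1 (0.121) or 24 h control replicate 2 (0.148) or with no filter (0.143).

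Of 8 tested hypodermis markers 0 passed between the depletions, with 3 at an unadjusted p under 0.05 and 0 by DESeq2, and their sums ran from 6458 to 10050 CPM in hypodermal and 5577 to 6740 CPM in global depletion. Of these markers, let-805, which anchors muscle to the epidermis, fell in global depletion against 24 h controls (-0.70, SE 0.21, edgeR adjusted p = 0.0284), a call lost in 8 of 18 alternatives, among them leaving out replicate 2 of the 24 h controls (0.226), of hypodermal (0.0518) or of global depletion (0.309). Body wall muscle, pharynx, neuron and germ line markers gave 0 calls between the depletions by edgeR and DESeq2, with 1, 0, 0 and 0 at an unadjusted p under 0.05. The part of these markers in the levels of the 5 genes was not tested.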

How the data were processed

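The authors deposited counts as whole numbers, 1 coding sequence per gene, not normalized and with no value below 3. Of 10 libraries, 1 matched no sample and was not used. WBcel235 and DESeq2 are named per the submitters' processing notes, and RNA was depleted of ribosomal RNA with RNase H before a SMARTER library kit, per the labels' protocols. Not given in the sources used here are the aligner, the counter, whether it used strand, and what it did with shared reads. The last pair could move reads between near-identical copies. Reads could move between pud-3 and pud-4 only if the listed spans were counted, since their coding sequences share 0 bases.

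The filter was filterByExpr on listed counts (minimum count 10, minimum total 15). Unlisted counts then entered as 1, and edgeR 4.0.16 (R 4.3.3) fitted all 9 libraries together by robust quasi-likelihood with TMM factors and 1 term per group. Benjamini-Hochberg adjusted p below 0.05 over all 8026 genes was the threshold, and the biological coefficient of variation was 0.203. SE is the absolute log2 fold change divided by the square root of F. Where a group was wholly unlisted, the fold is a lower bound with 3 counts in each of its libraries, without counting error. Coding lengths and the positions of neighbouring genes come from the WBcel235 annotation.

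The 5 genes, the related lists and the marker lists were chosen with earlier results of these data known. Genes of the related lists were looked up by symbol, so a gene entered under another name would count as unlisted. Named besides the 5 were related genes past the test, tested genes starting within 20 kb, the 5 genes of highest r with each, and the genes ranked beside each. Marker genes past the test and those of the intestine list, the extreme alh-4, and unpassed pathway genes shown as examples were named after their values were seen. Alternatives were unlisted counts as 0 or 2, RLE or total-count scaling, DESeq2 1.42.0, no filter, thinning to 166455 counts, a replicate block, a fit of only the 2 groups compared, and each library left out in turn.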

Additional observations from a re-analysis of the deposited data

Results flagged for a closer look

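Genes of the related lists whose effect in hypodermal depletion differed from that in global depletion, by the test between the depletions, were dct-17 (log2 fold change -3.68, hypodermal against global), dct-18 (1.70), pdi-2 (1.43), ctl-2 (1.59), lys-7 (1.59), gst-4 (1.53), ftn-1 (2.70), dod-3 (2.71) and hsp-16.2 (-1.19). Of these, dct-17 and hsp-16.2 were lower in hypodermal than in global depletion and the other 7 higher. The calls on dct-17, dct-18, pdi-2 and ctl-2 held in all 18 alternatives. Those on dod-3 ended in 9 of 16, gst-4 and lys-7 in 5 of 18 each, hsp-16.2 in 4 of 18 and ftn-1 in 3 of 17. The intestine markers pept-1, ges-1 and pho-1 also passed this test, as higher.

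Of the 5 chosen genes, scl-2 and dct-16 went in opposite directions against the 24 h controls in the 2 depletions. Every hypodermal library was above and every global library below both controls for scl-2 (log2 fold change 3.26 in hypodermal and -2.57 in global depletion) and for dct-16 (1.33 and -1.35). That difference was not tested, because the genes were chosen on it.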

How the results depend on the processing

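The 5 chosen genes kept the direction of every fold above or below 0 by more than its SE in every alternative that could be run, and most sizes moved by less than the spread between replicates. Thinning all libraries to 166455 counts lowered the least fold over global depletion to 24.9 for pud-3 and 6.51 for pud-4, and that over 24 h controls to 23.4 for pud-3. Thinned log2 fold changes were 4.74 for scl-2 between the depletions, -1.0 for scl-2 in global depletion against 24 h controls and 4.04 for pud-4 in hypodermal depletion against them. The last was 4.88 with unlisted counts as 0 and 4.10 with 2. With 1 library left out, hypodermal against global depletion gave 5.16 to 7.35 for scl-2, 2.31 to 3.10 for dct-16 and 4.16 to 5.79 for alh-13. Against 24 h controls, hypodermal depletion gave at least 40.3-fold to 63.6-fold for pud-3 and 4.10 to 4.99 for pud-4, and global depletion -4.15 to -1.90 for scl-2 and -5.81 to -4.12 for alh-13. The values 7.35 and -4.15 for scl-2, 5.79 and -5.81 for alh-13 and 4.99 for pud-4 left a group wholly unlisted. They depend on the count of 1 entered for it.

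Thinning gave no value for alh-13, dod-3, ftn-1, ges-1 and scl-24, which then failed the filter, nor did leaving out hypodermal replicate 1 for dod-3 or fitting only the controls for scl-2. The least folds were recomputed only where scaling, depth or libraries changed.

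Counts over all genes depended more on the processing. Between hypodermal and global depletion 240 genes were higher (80 thinned, 136 with a replicate block, 101 to 282 with 1 library left out) and 115 lower (46 thinned, 75 with the block, 177 from only these 2 groups, 51 to 149 with 1 left out). For hypodermal depletion against 24 h controls 133 were higher (46 thinned, 86 with the block, 75 to 156 with 1 left out) and 272 lower (134 with unlisted counts as 0, 85 thinned, 167 to 332 with 1 left out). For global depletion against 24 h controls 276 were higher (124 thinned, 141 to 299 with 1 left out) and 402 lower (250 with unlisted as 0, 165 thinned, 202 to 490 with 1 left out). Between 24 h and 18 h controls 75 were higher (210 with unlisted as 0, 114 with 2, 43 by DESeq2, 361 unfiltered, 44 thinned, 43 with the block, 19 from only these groups, 29 to 81 with 1 left out) and 171 lower (100 with unlisted as 0, 74 unfiltered, 94 thinned, 73 from only these groups, 47 to 167 with 1 left out). Thinning and leaving libraries out use fewer reads or samples, and the cause of the other shifts was not tested. The labels do not say whether replicate numbers pair the samples. Deviations from the group means, over tested genes, had correlations of -0.049 to 0.101 between same-numbered libraries over 12 pairs. Of these, 1 pair was over 0.1. Counting error lowers such correlations, and in groups of 2 the deviations mirror each other. They therefore cannot decide whether the samples were paired.

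Depth limits what can be said of pud-3 and pud-4 outside hypodermal depletion, since 3 counts stand for up to 18.2 CPM in controls. Calls on related and marker genes held in 558 repeats and ended in 100, and the direction reversed in none of them. With the replicate block, edgeR's calls on gst-4 ended (adjusted p = 0.137 between the depletions and 0.0856 against 24 h controls). The block also ended those on lys-7 (0.117), dod-3 (0.0683) and pho-1 (0.165) between the depletions, and on vap-1 between the controls (0.0961). Whether replicate numbers pair the samples is not known.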
